A study of Mus musculus with 26 samples.

Results

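The genes that encode the proteasome and its interferon-inducible form, the immunoproteasome, were followed through RNA sequencing of mouse CD4+ T cells. Members were chosen by symbol as the alpha and beta subunits of the core particle (Psma and Psmb), the ATPases and non-ATPases of the regulatory particle (Psmc and Psmd) and the activators (Psme), each followed by a number. The rule found 43 of the 21761 genes in the deposited count tables, and they fall into 9 roles. It used no measured value.

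The study examined vitamin C and the TET dioxygenases, enzymes that oxidise 5-methylcytosine, in regulatory T cells (Treg), which are marked by the transcription factor Foxp3. All 26 libraries were made from cells of C57BL/6 spleen and lymph nodes, and all the mice carried a Foxp3-eGFP reporter. Tet2/3-deficient Treg were CD4+eGFP+ cells of reporter mice aged 3 weeks with CD4-Cre and the floxed alleles Tet2fl/fl and Tet3fl/fl (n = 4). Control Treg were the same sort from Tet2fl/fl Tet3fl/fl reporter mice of that age without the Cre (n = 4), so the controls carry the floxed alleles too. CD4-Cre acts in developing thymocytes, ahead of Treg commitment. The other first-table libraries came from reporter mice aged 5 to 6 weeks, with 2 libraries each. They were induced Treg (iTreg) made from naive CD4+ cells with TGFβ, retinoic acid (RA) and vitamin C (VitC), with TGFβ and RA, with TGFβ and VitC, or with TGFβ alone, then Th0 cells activated through CD3 and CD28 without TGFβ, and unstimulated naive CD4+eGFP- cells. A second table held cells of reporter mice aged 12 to 14 weeks (n = 3 each). Its restimulated cells were TGFβ iTreg given anti-CD3/CD28 again and sorted as Foxp3-negative on day 6 after restimulation, and its day 6 iTreg were TGFβ cultures sorted for Foxp3 on day 6. The labels do not say whether libraries of a group came from separate mice or cultures, so the p-values below measure the spread between libraries, which may be technical.

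Library totals were 13397602 to 17672302 counts for ex vivo Treg, 9647669 to 11640223 for the cultured and naive cells and 11293704 to 17219805 in the second table. Of the 5 T cell markers Cd3e, Cd3g, Cd4, Lck and Trac, 4 were in the tables and none was at 0. In Tet2/3-deficient Treg, gene-level Tet3 lay at 94.9 to 114 CPM (counts scaled to library size), against 130 to 172 CPM in control Treg. Gene-level Tet2 lay at 12 to 16.3 CPM in Tet2/3-deficient Treg and 10.3 to 15.7 CPM in control Treg. The deleted exons are not given in the labels and a gene-level count takes in the remaining exons, so these values do not check the Tet2 deletion.

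The proteasome degrades proteins tagged with ubiquitin. Its barrel-shaped core has outer rings of alpha subunits and inner rings of beta subunits, of which Psmb6, Psmb7 and Psmb5 carry the caspase-like, trypsin-like and chymotrypsin-like active sites. Interferon-gamma induces Psmb9, Psmb10 and Psmb8, which take the places of those subunits in newly built immunoproteasomes and change which peptides are made for class I antigen presentation, and lymphocytes carry immunoproteasomes even at rest. The regulatory particle, with its ATPase ring, unfolds and threads substrates, while Psme1 and Psme2 form an interferon-inducible activator that opens the core without ATP.

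On the deposited FPKM scale, which divides by gene length, Psmb8 was the highest or second highest of the 43 genes in each of the 10 groups. It averaged 358 FPKM in Tet2/3-deficient Treg, 387 in control Treg, 437 in TGFβ plus RA plus VitC cultures, 382 in TGFβ plus RA, 429 in TGFβ plus VitC, 402 in TGFβ alone, 410 in Th0 and 310 in naive cells. Its average was 419 FPKM in restimulated cells and 527 FPKM in day 6 iTreg. Its constitutive counterpart Psmb5 averaged 174 FPKM in Tet2/3-deficient Treg, 152 in control Treg, 158 in TGFβ plus RA plus VitC cultures, 185 in TGFβ plus RA, 166 in TGFβ plus VitC, 203 in TGFβ alone, 221 in Th0 and 91.4 in naive cells. In the first table, naive cells were thus lowest for both genes, and by a wider margin for Psmb5. Psme1 ranked first in Tet2/3-deficient Treg at 423 FPKM and in naive cells at 367 FPKM.

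**Figure D1:**
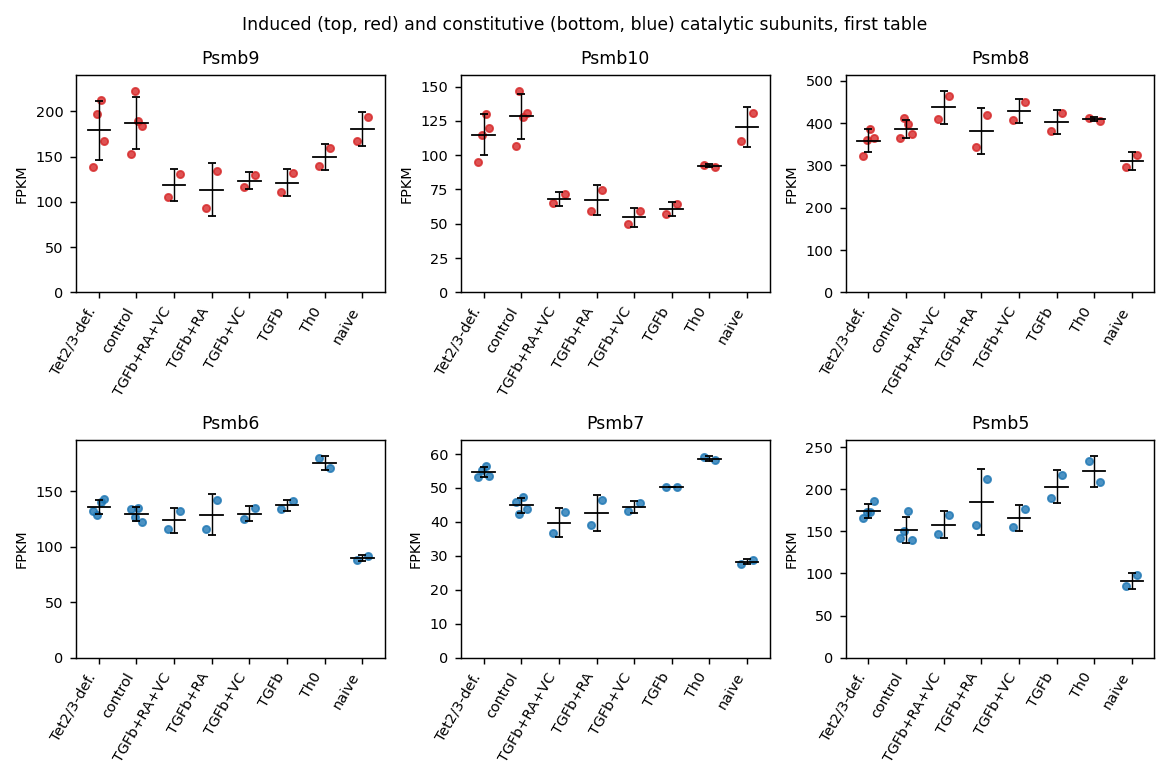
Deposited FPKM of the induced catalytic subunits Psmb9, Psmb10 and Psmb8 (top row, red) and of the constitutive subunits Psmb6, Psmb7 and Psmb5 (bottom row, blue) in the 8 groups of the first table. Points are libraries, horizontal bars the group mean and error bars the SD. Naive cells have the lowest values of all 3 constitutive subunits, while Psmb10 is lowest in the iTreg cultures, at 54.6 FPKM with TGFβ plus VitC, against 120 FPKM in naive cells.

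Upstream sequence is shown for both subunits of 2 catalytic positions, whose members changed by different amounts after activation. The remaining pair also differed, with Psmb7 called higher and Psmb10 lower in Th0 cells, and its sequence is not shown. The 250 bases before the RefSeq start (GRCm38.p6) are given 5′ to 3′ on the gene's strand, and capitals mark matches to an antioxidant response element (TGACNNNGC, the kind of site bound by NRF1, a factor known to drive proteasome genes), an interferon-stimulated response element (GAAA, any 2 bases, GAAA) or a gamma-activated sequence (TTCNNNGAA, bound by STAT factors), searched on both strands. They are Psmb5 at chr14:54617996-54618245 on the minus strand, Psmb6 at chr11:70525107-70525356 on the plus strand, Psmb8 at chr17:34197945-34198194 on the plus strand and Psmb9 at chr17:34187331-34187580 on the minus strand.
Psmb5: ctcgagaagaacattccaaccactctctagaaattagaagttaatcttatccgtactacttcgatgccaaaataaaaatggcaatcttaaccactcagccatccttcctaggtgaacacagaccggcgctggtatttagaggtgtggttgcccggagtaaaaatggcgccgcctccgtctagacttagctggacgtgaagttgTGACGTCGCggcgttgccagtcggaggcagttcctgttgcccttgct
Psmb6: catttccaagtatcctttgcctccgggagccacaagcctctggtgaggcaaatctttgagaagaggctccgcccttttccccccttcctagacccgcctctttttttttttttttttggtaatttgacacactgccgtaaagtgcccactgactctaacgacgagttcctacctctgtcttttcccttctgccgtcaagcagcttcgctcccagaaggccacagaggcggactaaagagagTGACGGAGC
Psmb8: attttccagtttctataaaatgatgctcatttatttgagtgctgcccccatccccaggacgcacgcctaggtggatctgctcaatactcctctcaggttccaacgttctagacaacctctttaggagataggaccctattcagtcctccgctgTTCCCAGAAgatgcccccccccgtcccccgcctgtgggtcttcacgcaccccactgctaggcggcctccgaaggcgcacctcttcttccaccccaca
Psmb9: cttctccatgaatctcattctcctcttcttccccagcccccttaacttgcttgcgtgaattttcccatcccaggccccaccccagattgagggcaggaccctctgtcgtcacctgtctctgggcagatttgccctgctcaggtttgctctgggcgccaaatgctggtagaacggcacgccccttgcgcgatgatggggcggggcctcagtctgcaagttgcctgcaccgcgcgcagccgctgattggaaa

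The Psmb5 match, TGACGTCGC, begins 47 bases before the start, and that of Psmb6, TGACGGAGC, 9 bases before it. Psmb8 holds TTCCCAGAA, beginning 97 bases before its start, and the Psmb9 window holds none of the 3 motifs. RefSeq windows of 300 bases, with 50 after the start, were matched for 36 of the 43 genes, as 39 windows. The antioxidant response element lay in 6 of the 39 windows (15.4%), near the 12.4% of all 32851 windows. The interferon-stimulated element lay in 4 (10.3%), against 3.44% of all windows, in Psmb3, Psmd4, Psmd9 and Psme1. The gamma-activated sequence lay in 2 (5.13%), against 8.3%. The CCAAT box, also searched on both strands, lay in 14 windows (35.9%), against 37.4%. These are letter matches, not measured binding. Psmb8 and Psmb9 lie next to Tap1 and Tap2, the class I peptide transporter genes, and Psme1 next to Psme2.

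Of the 9 comparisons of groups, activation of naive cells had the members' median log2 fold change farthest from 0. In Th0 against naive cells, 33 of the 41 members tested were higher and 3 lower (edgeR quasi-likelihood test, Benjamini-Hochberg adjusted p under 0.05), where 35.7% of all genes tested were higher and 36.4% lower. The median log2 fold change was 0.73 over the members and -0.01 over all genes. The groups did not overlap for 39 of the 41 members, where they did not for 86.6% of all genes tested. Psma8, a testis subunit, and the thymic Psmb11 were under the count filter. Values are relative to the library total, so in bulk RNA a change of level per cell and a change in the mix of cells cannot be told apart.

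All 3 constitutive catalytic subunits rose, and their median of 1.02 was the highest of any role. Psmb5 had 209 and 184 CPM in Th0 cells, against 77.1 and 88.5 CPM in naive cells. Both Th0 libraries were over every naive library, a log2 fold change of 1.25 ± 0.14 (SE, adjusted p = 8.67e-07, edgeR). Psmb7 had 196 and 190 CPM in Th0 cells, against 93.2 and 96.6 CPM in naive cells (log2 fold change 1.02 ± 0.10, adjusted p = 1.79e-07). Psmb6 had 191 and 179 CPM in Th0 cells and 95.5 and 98.6 CPM in naive cells (0.93 ± 0.10, adjusted p = 7.61e-07). For all 3 genes both Th0 libraries lay over both naive libraries. Each of the 3 has a named pseudogene, so their counts are uncertain.

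The induced partners differed among themselves, with 1 higher, 1 lower and 1 that did not pass. Psmb8 had 518 and 503 CPM in Th0 cells, against 378 and 412 CPM in naive cells, a rise of 0.37 ± 0.10 on the log2 scale (adjusted p = 0.00341, edgeR). Psmb10 had 121 and 118 CPM in Th0 cells, against 145 and 173 CPM in naive cells, and was lower (log2 fold change -0.41 ± 0.12, adjusted p = 0.00606). Psmb9 had 116 and 131 CPM in Th0 cells and 140 and 162 CPM in naive cells, which did not pass the test (-0.29 ± 0.15, adjusted p = 0.097). The Psmb9 groups did not overlap, and the gene passed when the 2 groups were fitted alone (adjusted p = 0.0194), while the other alternatives without a block gave 0.0833 to 0.949. Psmb9 shares exon sequence with Tap1 on the other strand, and whether the counting used strand is not given in the sources used here. Tap1 itself was lower, at 264 CPM in Th0 cells and 450 CPM in naive cells (log2 fold change -0.77 ± 0.11, adjusted p = 1.37e-05).

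The rest of the core rose together, with 7 of 7 tested alpha subunits and 4 of 4 non-catalytic beta subunits called higher. Psmb2, a non-catalytic beta subunit, had 208 and 201 CPM in Th0 cells, against 90.6 and 90.2 CPM in naive cells (1.18 ± 0.09, adjusted p = 1.59e-08). Alpha subunits ranged between 0.56 for Psma2 and 0.98 for Psma5 on the log2 fold change scale. Psmb1 had the smallest rise of the non-catalytic beta subunits, 0.42.

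In the regulatory particle all 6 ATPases rose, by 0.66 for Psmc2 to 1.03 for Psmc1, and 10 of 11 non-ATPases. Psmd7, a lid subunit that partners the deubiquitinase Psmd14, had 186 and 177 CPM in Th0 cells, against 88.2 and 78.6 CPM in naive cells (1.12 ± 0.11, adjusted p = 1.71e-07). Psmd13, another lid subunit, had 197 and 186 CPM in Th0 cells and 93.2 and 94.5 CPM in naive cells (1.03 ± 0.12, adjusted p = 1.5e-06). The exception was Psmd4, a ubiquitin receptor, with means of 168 CPM in Th0 cells and 151 CPM in naive cells (0.15 ± 0.10, adjusted p = 0.184). Of the 3 base assembly chaperones, Psmd9 rose by 0.35 and Psmd5 and Psmd10 did not pass.

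The activators split. Psme3, which forms a nuclear activator, had 277 and 264 CPM in Th0 cells, against 202 and 200 CPM in naive cells, and rose by 0.43 ± 0.08 (adjusted p = 0.000156, edgeR). Psme1 had 268 and 296 CPM in Th0 cells, against 345 and 401 CPM in naive cells (-0.40 ± 0.12, adjusted p = 0.00628). Psme2 had 264 and 288 CPM in Th0 cells and 257 and 297 CPM in naive cells, overlapping ranges with a log2 fold change of -0.01 ± 0.12 (adjusted p = 0.969). Psme4, a large single-chain nuclear activator, had 103 and 99.4 CPM in Th0 cells, against 125 and 130 CPM in naive cells (-0.33 ± 0.10, adjusted p = 0.00938). The count of lower members was 0 without naive replicate 2, 1 without Th0 replicate 2, 2 without Th0 replicate 1 and 3 without naive replicate 1.

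Genes around the proteasome moved in both directions. Among 16 assembly factors and partners tested, 8 rose and 4 fell. Uchl5, a proteasome-bound deubiquitinase, averaged 107 CPM in Th0 cells and 37.6 CPM in naive cells, and the core assembly factor Psmg3 28.7 CPM in Th0 cells and 11.6 CPM in naive cells. Ublcp1, a proteasome phosphatase, averaged 16.4 CPM in Th0 cells and 34.6 CPM in naive cells, and Ddi2, the protease that activates NRF1, 16.6 CPM in Th0 cells and 30.7 CPM in naive cells. Of 13 class I antigen processing genes 10 fell and 2 rose. The class I transactivator Nlrc5 averaged 97.4 CPM in Th0 cells and 268 CPM in naive cells, and Tapbpl, a peptide editor, 29 CPM in Th0 cells and 83.9 CPM in naive cells. The 2 that rose were the chaperone Canx, with 606 CPM in Th0 cells and 384 CPM in naive cells, and the disulfide isomerase Pdia3, with 753 CPM in Th0 cells and 562 CPM in naive cells. Of 12 interferon axis genes tested 10 fell, with a list median of -1.52, and 1 rose. Isg15 averaged 6.33 CPM in Th0 cells and 58.8 CPM in naive cells, and Irf7 28.3 CPM in Th0 cells and 198 CPM in naive cells, while the receptor chain Ifngr1 rose to 187 CPM in Th0 cells, against 135 CPM in naive cells. Mki67, a proliferation marker, averaged 1020 CPM in Th0 cells and 7.94 CPM in naive cells. The 12 myeloid and dendritic markers, all in the table, summed to 70.9 to 81 CPM in Th0 cells, with Csf1r, Itgax, Lyz2 and Tyrobp among the 8 at 0. They summed to 50 to 50.6 CPM in naive cells, with Csf1r among the 4 at 0. Cst3 alone averaged 69.1 CPM in Th0 cells and 40.6 CPM in naive cells. The 5 erythroid and platelet markers reported here (Hba-a2, Hbb-b1, Alas2, Slc4a1 and Pf4) summed to 97 to 135 CPM in Th0 cells, with Slc4a1 and Pf4 at 0, and 1.11 to 2.28 CPM in naive cells, with Hbb-b1 and Pf4 at 0. The part of proliferation, of the interferon genes or of these markers in the proteasome changes was not tested.

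**Figure D2:**
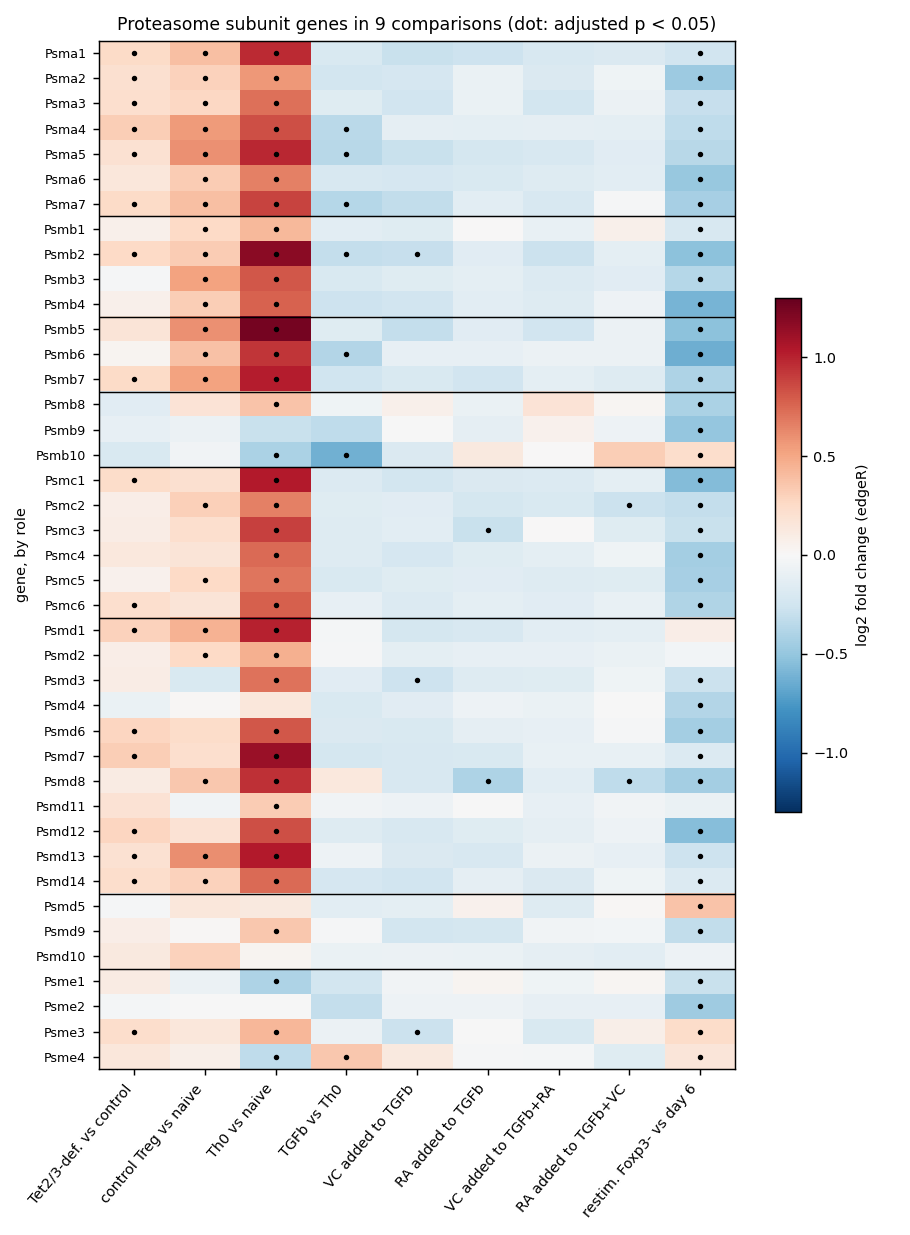
Log2 fold changes from edgeR for the 41 members tested in every comparison, ordered by role (horizontal lines), in 9 comparisons. Colour runs between blue for lower and red for higher, and a dot marks an adjusted p under 0.05. The Th0 column has 33 red cells with a dot, among them all alpha, non-catalytic beta, constitutive catalytic and ATPase subunits, and the restimulation column has 33 blue cells with a dot.

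Restimulated cells gave a second, independent pair of groups. In restimulated Foxp3-negative cells against day 6 iTreg, 33 of 42 members tested were lower and 4 higher, where 35.2% of all genes tested were lower and 33.6% higher. The median log2 fold change was -0.35 over the members and -0.01 over all genes, and the groups did not overlap for 38 of 42 members, where they did not for 72.8% of all genes. All 7 tested alpha subunits, all 4 non-catalytic beta subunits, all 3 constitutive catalytic subunits, all 6 ATPases and 8 of 11 non-ATPases were lower. These groups differ in restimulation, in the Foxp3 sort and perhaps in time in culture, which cannot be told apart.

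Psmb6 had 96.5, 105 and 97.7 CPM in restimulated cells, against 141, 162 and 160 CPM in day 6 iTreg. No library overlapped, and the log2 fold change of -0.63 ± 0.06 (adjusted p = 5.38e-07, edgeR) exceeded in size that of the other members. Psmb4, a non-catalytic beta subunit, had 170, 171 and 169 CPM in restimulated cells and 233, 279 and 266 CPM in day 6 iTreg (-0.61 ± 0.06, adjusted p = 6.96e-07). Psmb5 had 111, 108 and 98.3 CPM in restimulated cells and 145, 160 and 155 CPM in day 6 iTreg (-0.54 ± 0.06, adjusted p = 2.15e-06). Psmb7 fell by 0.40 on the same scale. In the regulatory particle, the ATPase Psmc1 had 110, 116 and 114 CPM in restimulated cells, against 167, 171 and 163 CPM in day 6 iTreg (-0.56 ± 0.05, adjusted p = 2.72e-07). The lid subunit Psmd12 had 75.5, 78.1 and 76.3 CPM in restimulated cells and 116, 116 and 107 CPM in day 6 iTreg (-0.56 ± 0.06, adjusted p = 4.78e-07). The scaffold subunits Psmd1 and Psmd2 and the lid subunit Psmd11 did not pass.

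Here the induced subunits divided in another way. Psmb8 had 499, 513 and 487 CPM in restimulated cells, against 615, 688 and 686 CPM in day 6 iTreg (-0.41 ± 0.06, adjusted p = 1.63e-05, edgeR). Psmb9 had 70.6, 77.1 and 67.7 CPM in restimulated cells, against 89.8, 115 and 99.1 CPM in day 6 iTreg (-0.50 ± 0.08, adjusted p = 0.00016). Psmb10 went the other way, with 98.3, 97.4 and 92.7 CPM in restimulated cells, against 76.1, 87.7 and 82.1 CPM in day 6 iTreg (0.23 ± 0.06, adjusted p = 0.00424). The 3 restimulated libraries lay over the day 6 libraries for Psmb10 and under them for Psmb8 and Psmb9. Psmb11 had 11 to 15 counts per restimulated library and 8 to 12 per day 6 library and did not pass (0.36 ± 0.33, adjusted p = 0.352).

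Of the activators, Psme1 fell by 0.28 and Psme2 by 0.46, while Psme3 and Psme4 were higher. Psme3 had 228, 232 and 217 CPM in restimulated cells, against 199, 192 and 184 CPM in day 6 iTreg (0.24 ± 0.05, adjusted p = 0.0012, edgeR). Psme4 had 110, 105 and 114 CPM in restimulated cells and 96.7, 102 and 95.3 CPM in day 6 iTreg (0.16 ± 0.06, adjusted p = 0.0188), a call that was lost with upper quartile factors (adjusted p = 0.0982) or without restimulated replicate 1 (0.0581) or 3 (0.0737). Psmd5, an assembly chaperone of the ATPase ring, had 75, 71.6 and 75.1 CPM in restimulated cells and 59, 58.2 and 53.9 CPM in day 6 iTreg (0.37 ± 0.06, adjusted p = 5.04e-05). Its fellow chaperone Psmd9 fell by 0.32.

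**Figure D3:**
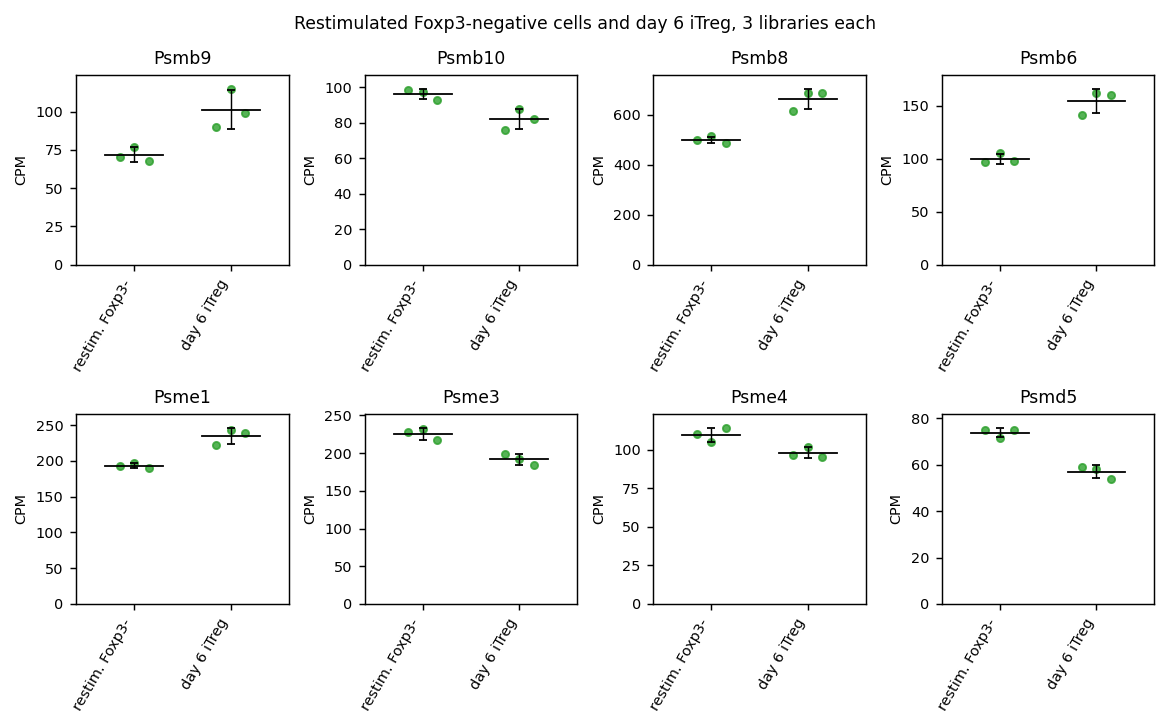
CPM of 8 members in the 3 restimulated Foxp3-negative libraries (left in each panel) and the 3 day 6 iTreg libraries (right), with group mean (bar) and SD (error bar). Psmb9, Psmb8, Psmb6 and Psme1 are lower and Psmb10, Psme3, Psme4 and Psmd5 higher in restimulated cells, without overlap of the groups.

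Of 15 partners tested in restimulated cells 7 fell and 3 rose. The assembly factor Psmg1 averaged 17.1 CPM in restimulated cells and 36.7 CPM in day 6 iTreg, and Ublcp1 8.3 CPM in restimulated cells and 13.4 CPM in day 6 iTreg. Nfe2l2, which encodes the stress factor NRF2, averaged 115 CPM in restimulated cells and 58 CPM in day 6 iTreg, and Ddi2 17.3 CPM in restimulated cells and 10.7 CPM in day 6 iTreg. Of 13 class I genes 5 rose and 1, the chaperone Hspa5, fell. The peptide trimming enzyme Erap1 averaged 230 CPM in restimulated cells and 102 CPM in day 6 iTreg, and Nlrc5 149 CPM in restimulated cells and 91.4 CPM in day 6 iTreg. Interferon axis genes divided into 5 higher and 6 lower of 12. Ifngr1 averaged 787 CPM in restimulated cells and 356 CPM in day 6 iTreg, and Gbp2 47.5 CPM in restimulated cells and 25.3 CPM in day 6 iTreg, while Irf8 averaged 9.24 CPM in restimulated cells and 30.9 CPM in day 6 iTreg and Isg15 0.575 CPM in restimulated cells and 6.66 CPM in day 6 iTreg. The core assembly factor Pomp averaged 118 CPM in restimulated cells and 152 CPM in day 6 iTreg. Foxp3, the gene behind the sort, averaged 14.9 CPM in restimulated cells and 334 CPM in day 6 iTreg, and Mki67 190 CPM in restimulated cells and 475 CPM in day 6 iTreg. The 6 NK cell markers, all in the table, summed to 175 to 178 CPM in restimulated cells and 4.27 to 7.38 CPM in day 6 iTreg, with Nkg7 alone at 153 CPM in restimulated cells and Ncr1 and Klra8 at 0 in both groups. The erythroid and platelet markers summed to 21.6 to 27.2 CPM in restimulated cells and 65.9 to 96.9 CPM in day 6 iTreg, with Slc4a1 and Pf4 at 0 in both. The part of these differences in the proteasome values was not tested.

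The activation and restimulation comparisons share no library. Of the 33 members higher in Th0 cells, 29 were among the 33 lower in restimulated cells, which is 29 of 33 of either list. Over all genes tested in both, 55.5% of the genes higher in Th0 cells were lower in restimulated cells, or 57.6% of those lower there. Psmb10 and Psme4 were lower in Th0 cells and higher in restimulated cells, Psme3 was higher in both and Psme1 lower in both. Without naive replicate 2 the Th0 estimates were -0.28 for Psmb10, -0.30 for Psme4 and -0.29 for Psme1, and these calls did not hold.

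**Figure D4:**
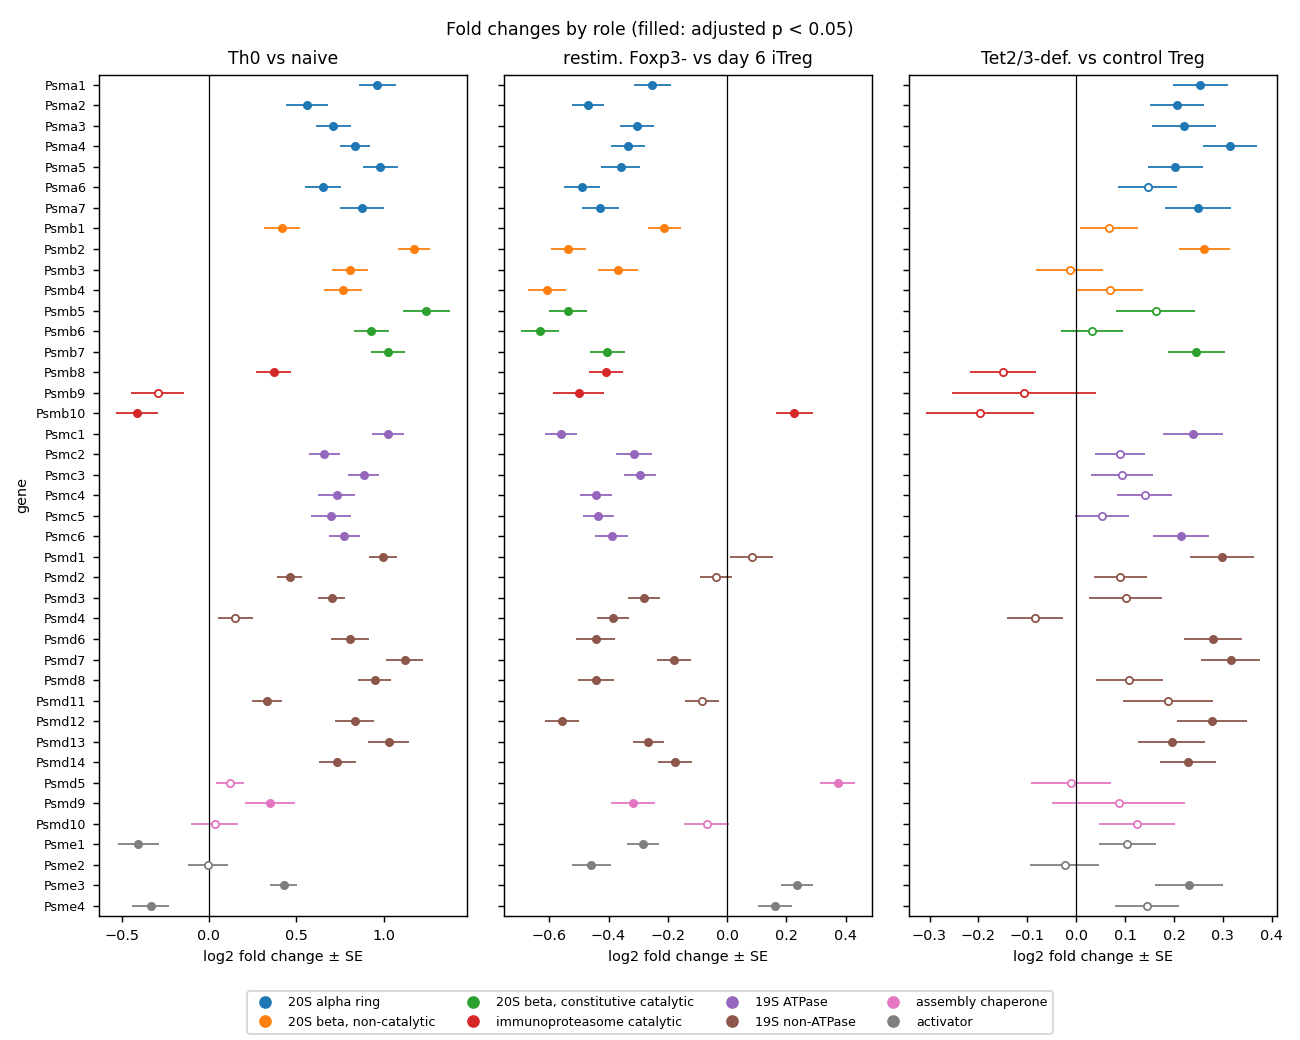
Log2 fold change ± SE from edgeR for the 41 members in Th0 against naive cells, restimulated Foxp3-negative cells against day 6 iTreg, and Tet2/3-deficient against control Treg. Colours give the role and filled points an adjusted p under 0.05; each panel has its own axis. In the left panel the core and regulatory subunits lie right of 0, apart from the induced Psmb9 and Psmb10. Core and regulatory subunits lie mostly left of 0 in the middle panel. In the right panel the induced catalytic subunits lie left of 0 with none passing.

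In Tet2/3-deficient against control Treg, 17 of 42 members tested were higher and none lower, where 16.7% of all genes tested were higher and 15.8% lower. At an unadjusted p under 0.05, 1 member was lower, with no share of all genes taken at that threshold. DESeq2 called 17 higher and 0 lower, where 17.4% of all genes were higher and 17.1% lower. The changes were small, with a median log2 fold change of 0.14 over the members and 0.00 over all genes. The groups did not overlap for 19 of 42 members, all higher, where 17.8% of all genes lay higher and 15.6% lower without overlap. The count of higher members was 11 without control library S2, where 12.3% of all genes were higher. No member was higher by a required log2 fold change of 0.5, where 2.35% of all genes were. The higher members were 6 of 7 alpha subunits, 6 of 11 non-ATPases, 2 of 6 ATPases, and Psmb2, Psmb7 and Psme3.

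Psma4, an alpha subunit, had 250, 241, 247 and 237 CPM in Tet2/3-deficient Treg, against 188, 195, 210 and 191 CPM in control Treg (log2 fold change 0.32 ± 0.06, adjusted p = 0.00141, edgeR). Psmd7 had 126, 127, 131 and 136 CPM in Tet2/3-deficient Treg, against 98.5, 102, 112 and 105 CPM in control Treg (0.32 ± 0.06, adjusted p = 0.00235). Psmd1 had 226, 226, 213 and 217 CPM in Tet2/3-deficient Treg and 194, 165, 188 and 170 CPM in control Treg (0.30 ± 0.07, adjusted p = 0.00497). For all 3 genes every Tet2/3-deficient library lay over every control library. The lid subunit Psmd6 had 112, 113, 109 and 115 CPM in Tet2/3-deficient Treg and 88, 90.4, 99.8 and 90.9 CPM in control Treg (0.28 ± 0.06, adjusted p = 0.00406).

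Of the constitutive catalytic subunits Psmb7 was higher, with 170, 176, 179 and 172 CPM in Tet2/3-deficient Treg, against 150, 139, 158 and 142 CPM in control Treg (0.25 ± 0.06, adjusted p = 0.00793, edgeR). Psmb5 did not pass (0.16 ± 0.08, adjusted p = 0.14) but did with limma on log2 FPKM (adjusted p = 0.0477) and without control library S3 (adjusted p = 0.016), and Psmb6 gave 0.03 ± 0.06. The 3 induced subunits had negative estimates and none passed, though Psmb10 did without control library S1 (-0.28, adjusted p = 0.0474). Psmb8 had 389, 433, 463 and 445 CPM in Tet2/3-deficient Treg, against 450, 512, 500 and 457 CPM in control Treg (-0.15 ± 0.07, adjusted p = 0.114). Psmb10 had 119, 144, 162 and 151 CPM in Tet2/3-deficient Treg and 137, 190, 168 and 166 CPM in control Treg (-0.20 ± 0.11, adjusted p = 0.197). Psmb9 had 110, 157, 168 and 134 CPM in Tet2/3-deficient Treg and 125, 183, 157 and 148 CPM in control Treg (-0.11 ± 0.15, adjusted p = 0.614). Ranges overlapped for all 3, and library S5 of the deficient and S1 of the control group were the lowest of their groups for each.

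Psme3 was the 1 activator called, with 276, 280, 277 and 287 CPM in Tet2/3-deficient Treg, against 224, 216, 268 and 246 CPM in control Treg (0.23 ± 0.07, adjusted p = 0.025, edgeR). It no longer passed without Tet2/3-deficient library S6, S7 or S8 or control library S2 (adjusted p = 0.0555 to 0.0827). It did not pass without libraries S5 and S1 together either (adjusted p = 0.0632), an alternative chosen after seeing the data that gave 16 higher members. Psme1 gave 0.10 ± 0.06 (adjusted p = 0.191), Psme2 -0.02 ± 0.07 (adjusted p = 0.825) and Psme4 0.14 ± 0.07 (adjusted p = 0.113), which passed without control library S1 (adjusted p = 0.0329). Psmb11 had 18 to 30 counts per Tet2/3-deficient library and 22 to 36 per control library (-0.24 ± 0.24, adjusted p = 0.455).

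Of 16 partners 6 were higher in Tet2/3-deficient Treg, led by Uchl5, with 61 CPM in Tet2/3-deficient Treg and 40.3 CPM in control Treg, and Psmg1, with 45.3 CPM in Tet2/3-deficient Treg and 32.1 CPM in control Treg. Nfe2l2 was the 1 lower partner, with 36.7 CPM in Tet2/3-deficient Treg and 45 CPM in control Treg. Of 13 class I genes 5 were lower and 1, Canx, higher (462 CPM in Tet2/3-deficient Treg and 389 CPM in control Treg). H2-K1, a class I heavy chain, averaged 1760 CPM in Tet2/3-deficient Treg and 2390 CPM in control Treg, and Tap2 252 CPM in Tet2/3-deficient Treg and 338 CPM in control Treg. Of 13 interferon axis genes 3 were lower and 1 higher. Irf1 averaged 154 CPM in Tet2/3-deficient Treg and 220 CPM in control Treg, Ifng 0.413 CPM in Tet2/3-deficient Treg and 1.15 CPM in control Treg, and Gbp2 320 CPM in Tet2/3-deficient Treg and 205 CPM in control Treg. The 6 NK markers summed to 156 to 184 CPM in Tet2/3-deficient Treg, with Klra8 at 0, and 40.9 to 50.9 CPM in control Treg. Nkg7 alone averaged 135 CPM in Tet2/3-deficient Treg and 36.8 CPM in control Treg. The CD8 T cell markers Cd8a and Cd8b1 summed to 3.37 to 5.3 CPM in Tet2/3-deficient Treg and 24.8 to 28.5 CPM in control Treg. The 12 myeloid and dendritic markers summed to 145 to 257 CPM in Tet2/3-deficient Treg, with Clec9a at 0, and 146 to 159 CPM in control Treg. The highest of them, Cst3, averaged 92.9 CPM in Tet2/3-deficient Treg and 96.1 CPM in control Treg. The 7 B cell markers reported here summed to 47.1 to 63.8 CPM in Tet2/3-deficient Treg and 45.6 to 109 CPM in control Treg, and the erythroid and platelet markers to 197 to 407 CPM in Tet2/3-deficient Treg and 293 to 712 CPM in control Treg. Mki67 lay at 81.2 to 130 CPM in Tet2/3-deficient Treg and 25.4 to 85.1 CPM in control Treg. Their part in the proteasome values was not tested.

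All 17 members higher in Tet2/3-deficient Treg were among the 33 higher in Th0 cells, and 15 of the 17 among the 33 lower in restimulated cells. Over all genes tested in each pair, 73.9% of the genes higher in Tet2/3-deficient Treg were higher in Th0 cells, and 54.7% were lower in restimulated cells.

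The ratio of induced to constitutive subunit at each catalytic position was read within each library from FPKM, as a description. Psmb5, Psmb6 and Psmb7 have named pseudogenes, so their counts and with them these ratios are uncertain. At the Psmb8 and Psmb5 position it was 1.77 and 1.95 in Th0 cells, against 3.49 and 3.32 in naive cells. At the Psmb10 and Psmb7 position it was 1.57 in both Th0 libraries, against 3.97 and 4.55 in naive cells, and at the Psmb9 and Psmb6 position 0.78 and 0.937 in Th0 cells, against 1.89 and 2.11 in naive cells. All 3 positions were thus lower in Th0 than in naive cells without overlap. In Tet2/3-deficient Treg the Psmb10 to Psmb7 ratio ran over 1.78, 2.09, 2.31 and 2.24, against 2.32, 3.49, 2.71 and 2.99 in control Treg. The Psmb8 to Psmb5 ratio ran over 1.93, 2.08, 2.23 and 1.97 in Tet2/3-deficient Treg, against 2.56, 2.74, 2.28 and 2.67 in control Treg. Neither of these overlapped, though the closest libraries were near each other, and the Psmb9 to Psmb6 ratio overlapped. In restimulated cells the Psmb10 to Psmb7 ratio was 2.31, 2.1 and 2.26, against 1.32, 1.53 and 1.44 in day 6 iTreg. The Psmb8 to Psmb5 ratio was 3.19, 3.38 and 3.53 in restimulated cells, just over 3.03, 3.06 and 3.14 in day 6 iTreg. The Psmb9 to Psmb6 ratio overlapped, with 0.94, 0.944 and 0.891 in restimulated cells and 0.819, 0.915 and 0.795 in day 6 iTreg.

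**Figure D5:**
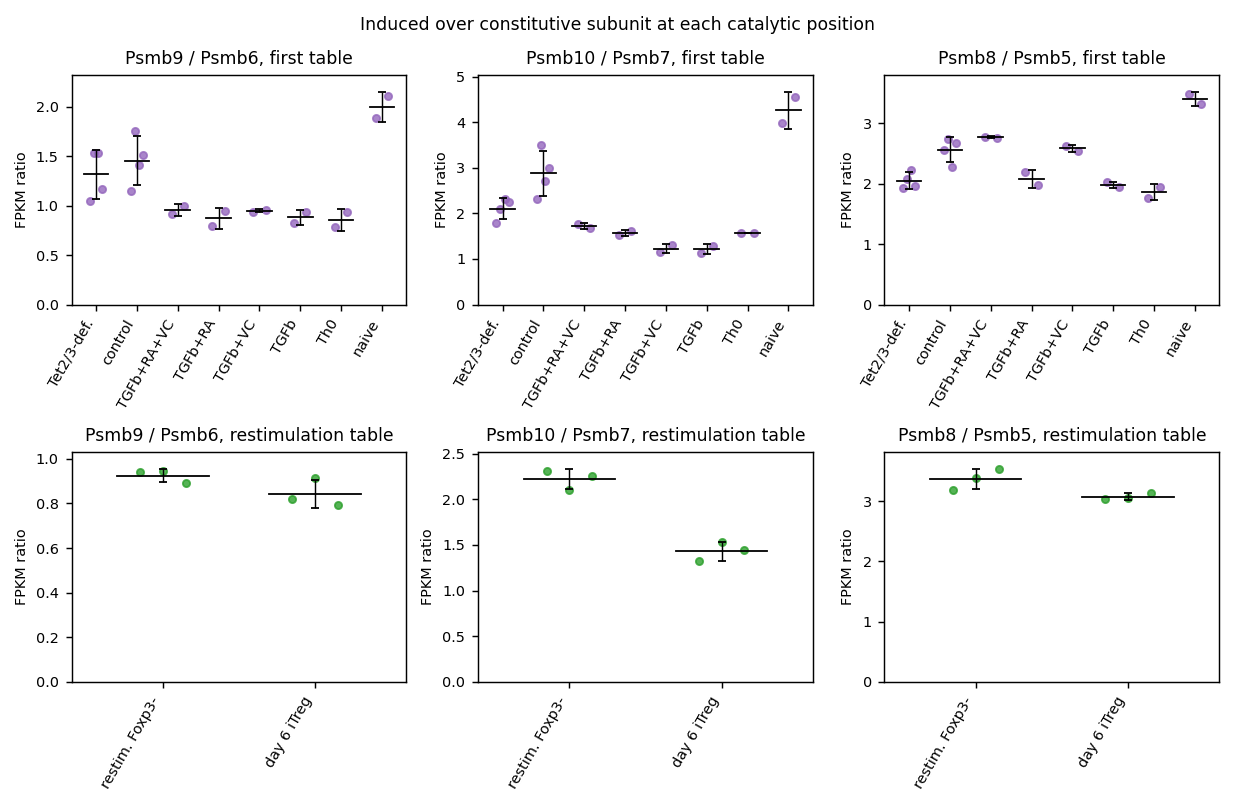
FPKM ratio of the induced to the constitutive subunit at each catalytic position, for the 8 groups of the first table (top, purple) and for restimulated cells and day 6 iTreg (bottom, green). Points are libraries, bars the mean and error bars the SD. In the top row naive cells have the highest ratio at each position, and the Psmb10 to Psmb7 ratio of restimulated cells lies over that of day 6 iTreg.

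Across the 20 libraries of the first table, members fell into unlike patterns of log2(FPKM + 1), given as Pearson correlations that describe libraries sharing groups and depth. Psmb9 was most like Psme2 (0.942) and Psmb10 most like Psme1 (0.922). Psmb8 stood apart from them, being most like Psmc3 (0.701) and least like Psme1 (-0.433). Psmb5 was most like Psmc4 (0.957). Over the 12091 genes ranked, those most like Psmb8 were Ech1 (0.93), Chmp2a (0.871), Rab1b (0.859), Arfgap3 (0.855) and Fadd (0.844). Over the 6 libraries of the second table they were Uqcrq, Uqcc2 and Ndufb2 (0.999 each), Atp5l (0.998) and Psme1 (0.998).

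In TGFβ iTreg against Th0 cells 6 of 41 were lower and 1 higher, where 11.6% of all genes tested were lower and 14.5% higher, and the median log2 fold change was -0.18 over the members and -0.00 over all genes. The estimate was negative for 39 of the 41, and 32 lay lower without overlap, where 33.4% of all genes did. With the 2 groups fitted alone 12 were lower, where 15.2% of all genes were. Psmb10 had 72.7 and 81.8 CPM in TGFβ iTreg, against 121 and 118 CPM in Th0 cells (log2 fold change -0.63 ± 0.12, adjusted p = 0.00191, edgeR). Psmb6 had 139 and 146 CPM in TGFβ iTreg, against 191 and 179 CPM in Th0 cells (-0.38 ± 0.10, adjusted p = 0.0116). Psma7 fell by 0.37 and Psma5 by 0.36, with Psma4 and Psmb2 also lower. Psme4 was higher, with 132 and 125 CPM in TGFβ iTreg and 103 and 99.4 CPM in Th0 cells (0.35 ± 0.10, adjusted p = 0.0235). Psmb8 gave -0.06 ± 0.10 and Psmb9 -0.33 ± 0.15 (adjusted p = 0.126), while Psmb5, Psmb7, Psme1, Psme2 and Psme3 gave -0.16, -0.25, -0.24, -0.31 and -0.08 without passing. Psmb7 (adjusted p = 0.0249), Psmb9 (0.0163) and Psme2 (0.0129) did pass with the 2 groups fitted alone, and Psme2 with no count filter (0.0397). Leaving out any 1 of the 4 libraries removed the higher call and left 1 to 3 lower. Of 16 partners 6 were lower, with Psmg1 at 40.5 CPM in TGFβ iTreg and 59.5 CPM in Th0 cells, and Nfe2l2 at 80.7 CPM in TGFβ iTreg and 114 CPM in Th0 cells. Tap1 was the 1 class I gene called, at 208 CPM in TGFβ iTreg and 264 CPM in Th0 cells. Of 12 interferon axis genes 4 rose, led by Ifngr1 (514 CPM in TGFβ iTreg and 187 CPM in Th0 cells) and Gbp3 (22.5 CPM in TGFβ iTreg and 8.63 CPM in Th0 cells).

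Vitamin C added to TGFβ gave 3 of 41 members lower and none higher, where 7.99% of all genes tested were lower and 8.84% higher. The median log2 fold change was -0.20 over the members and -0.00 over all genes, the estimate was negative for 39 of the 41, and 31 lay lower without overlap, where 30.8% of all genes did. With the 2 groups fitted alone 10 were lower, where 9.22% of all genes were. At an unadjusted p under 0.05, 14 members were lower and 0 higher, but the share of all genes at that threshold was not taken. DESeq2 called 0 higher. Psmb2 had 134 and 134 CPM with TGFβ plus VitC, against 164 and 165 CPM with TGFβ alone (-0.30 ± 0.09, adjusted p = 0.0318, edgeR). Psme3 had 207 and 216 CPM with TGFβ plus VitC, against 259 and 254 CPM with TGFβ alone (-0.28 ± 0.08, adjusted p = 0.0253), and Psmd3, a lid subunit, 198 and 205 CPM with TGFβ plus VitC, against 242 and 242 CPM with TGFβ alone (-0.27 ± 0.08, adjusted p = 0.0274). Leaving out any 1 of the 4 libraries left no member called. Psmb8 had 491 and 536 CPM with TGFβ plus VitC and 466 and 515 CPM with TGFβ alone (0.07 ± 0.10, adjusted p = 0.685). Psmb9 (adjusted p = 0.995) and Psmb10 (-0.18 ± 0.12) did not pass, and Psmb5, Psmb6 and Psmb7 gave -0.31, -0.11 and -0.20, none of which passed, though Psmb5 did with the 2 groups fitted alone (adjusted p = 0.0451). The other activators gave -0.04 for Psme1, -0.06 for Psme2 and 0.12 for Psme4. Of 16 partners 4 were lower, with Psmg1 at 26.2 CPM with TGFβ plus VitC and 40.5 CPM with TGFβ alone, and Uchl5 at 61.1 CPM with TGFβ plus VitC and 84.1 CPM with TGFβ alone. Tap2 rose to 392 CPM with TGFβ plus VitC, against 268 CPM with TGFβ alone, with 3 class I genes higher and 1 lower of 13, and 2 of 12 interferon axis genes were higher, the guanylate-binding proteins Gbp3 (61.4 CPM with TGFβ plus VitC and 22.5 CPM with TGFβ alone) and Gbp2 (104 CPM with TGFβ plus VitC and 48.2 CPM with TGFβ alone).

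Where RA was present, vitamin C gave no called member of 41 (edgeR), where 3.22% of all genes tested were lower and 4.31% higher. At an unadjusted p under 0.05, 4 members were lower and 0 higher, with no share of all genes taken at that threshold. DESeq2 and limma called 0. The members' median log2 fold change was -0.13 with all libraries, -0.24 without RA replicate 1 and 0.002 without RA replicate 2. Psmb8 had 495 and 549 CPM with TGFβ plus RA plus VitC, against 416 and 507 CPM with TGFβ plus RA (0.18 ± 0.10, adjusted p = 0.327). Psmb5 had 127 and 142 CPM with TGFβ plus RA plus VitC and 135 and 183 CPM with TGFβ plus RA (-0.24 ± 0.13, adjusted p = 0.315). Both pairs overlapped. The other catalytic subunits and activators lay between -0.19 for Psme3, whose groups did not overlap, and 0.05 for Psmb9 on the log2 fold change scale. The test of whether the vitamin C response differed with RA called no member, where 0% of all genes tested were higher and 0.0177% lower, with 0 at an unadjusted p under 0.05 and 0 by DESeq2 or limma. Tap2 was the 1 class I gene higher, at 373 CPM with TGFβ plus RA plus VitC and 254 CPM with TGFβ plus RA, and Gbp3 the 1 interferon axis gene, at 67.2 CPM with TGFβ plus RA plus VitC and 43.8 CPM with TGFβ plus RA. None of the 16 partners passed.

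RA added to TGFβ gave 2 of 41 lower and none higher, where 9.29% of all genes tested were lower and 7.19% higher. DESeq2 called 2 lower and 0 higher, where 8.53% of all genes were lower. At an unadjusted p under 0.05, 9 were lower and 0 higher, with no share of all genes taken at that threshold. Psmd8, a lid subunit, had 236 and 281 CPM with TGFβ plus RA, against 352 and 330 CPM with TGFβ alone (-0.40 ± 0.09, adjusted p = 0.00722, edgeR). The ATPase Psmc3 had 212 and 247 CPM with TGFβ plus RA, against 273 and 288 CPM with TGFβ alone (-0.29 ± 0.09, adjusted p = 0.0341). The members' median log2 fold change was -0.13 with all libraries, against 0.02 over all genes. It was -0.29 without RA replicate 2, -0.04 without RA replicate 1 and -0.19 without TGFβ replicate 1. Without RA replicate 1, Psmd8 gave -0.29 and Psmc3 -0.20. The Psmc3 call was lost with limma on log2 FPKM (adjusted p = 0.0527) and with the 2 groups fitted alone by edgeR (adjusted p = 0.118). With all libraries, the catalytic subunits and activators lay between -0.24 for Psmb7 and 0.13 for Psmb10 on the log2 fold change scale, none passing. Among them only the Psmb7 groups did not overlap. Without RA replicate 2, Psmb7 and Psmb5 each gave -0.39. RA also gave 1 lower partner of 16, Uchl5 (63.8 CPM with TGFβ plus RA and 84.1 CPM with TGFβ alone), 3 lower class I genes of 13 (Tap1, Canx and Hspa5) and 3 higher interferon axis genes of 12 (Ifngr1, Gbp2 and Gbp3). Psmd8 was lower with RA also where VitC was present, with 228 and 241 CPM with TGFβ plus RA plus VitC, against 308 and 281 CPM with TGFβ plus VitC (-0.33 ± 0.09, adjusted p = 0.0246), a call lost without either RA plus VitC replicate or without VitC replicate 1 (adjusted p = 0.062 to 0.224). That comparison called 2 of 41 lower and none higher, where 9.3% of all genes tested were lower and 5.81% higher. The other was the ATPase Psmc2, with 115 and 126 CPM with TGFβ plus RA plus VitC and 138 and 155 CPM with TGFβ plus VitC (adjusted p = 0.0461), a call lost with upper quartile factors, with no count filter, with limma or with the 2 groups fitted alone (adjusted p = 0.0558 to 0.087). The lists held 1 lower partner of 16 (Ublcp1), 1 lower class I gene of 13 (Hspa5) and 1 lower interferon axis gene of 12 (Ifngr2). Psmb10 had 81.3 and 88.4 CPM with TGFβ plus RA plus VitC and 62.1 and 73.8 CPM with TGFβ plus VitC, without overlap, and did not pass (0.32 ± 0.12, adjusted p = 0.102). The other catalytic subunits and activators lay between -0.17 for Psmb7 and 0.07 for Psme3. The members' summed share of counts was 0.687% in replicate 2 and 0.618% in replicate 1 with TGFβ plus RA plus VitC, 0.752% and 0.64% with TGFβ plus RA, 0.713% and 0.661% with TGFβ plus VitC, and 0.782% and 0.733% with TGFβ alone, so that replicate 2 was over replicate 1 in each of these cultures. The erythroid and platelet markers summed to 8.66 to 16.3 CPM with TGFβ plus RA plus VitC, 38.8 to 71.3 CPM with TGFβ plus RA, 49 to 69 CPM with TGFβ plus VitC and 130 to 179 CPM with TGFβ alone, and their part in the culture comparisons was not tested.

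Control Treg against naive cells compared cells that also differ in age, in genotype and in library set, which cannot be told apart. Of 42 members tested 22 were higher and none lower, or 21 of 41 leaving out Psmb11, which passed the count filter through the control Treg libraries alone, where 28.6% of all genes tested were higher and 26.3% lower. With Psmb11 among the 42, the higher count was 24 with DESeq2, 26 with RLE factors and 28 with all 20 libraries fitted. Of all genes 28.6%, 29.5% and 32.4% were higher there. The count was 31 with upper quartile factors and 32 with limma on log2 FPKM, where 31.9% and 35.8% of all genes were higher. DESeq2 called 0 lower, and 0 were lower at an unadjusted p under 0.05. All 7 tested alpha subunits, all 4 non-catalytic and all 3 constitutive catalytic beta subunits were higher. Psmb5 had 119, 128, 148 and 117 CPM in control Treg, against 78.8 and 91.1 CPM in naive cells (0.59 ± 0.12, adjusted p = 0.00153, edgeR). Psmb7 gave 0.53 ± 0.09, Psmb6 0.38 ± 0.09, Psma5 0.59 ± 0.09 and Psmd13 0.60 ± 0.10. None of the induced subunits passed, with Psmb8 at 427, 492, 475 and 440 CPM in control Treg, against 386 and 424 CPM in naive cells (0.18 ± 0.09, adjusted p = 0.101), Psmb9 at -0.08 ± 0.14 and Psmb10 at -0.05 ± 0.13. Psmb8 passed with upper quartile factors (adjusted p = 0.0344) with limma on log2 FPKM (adjusted p = 0.00746) and without control library S1 (adjusted p = 0.0436). None of the 4 activators passed, with -0.08 for Psme1, -0.01 for Psme2, 0.14 for Psme3 and 0.07 for Psme4. Of 16 partners 5 were higher, among them the core assembly factor Pomp (132 CPM in control Treg and 94.8 CPM in naive cells), and 2 lower, Nfe2l2 and Ddi2. Of 13 class I genes Nlrc5 and B2m were lower, and 13 interferon axis genes divided into 4 higher and 3 lower. The count of higher members was 28 without control library S1 and 20 without S2, where 29.9% and 26.8% of all genes were higher. The members' median log2 fold change was 0.26 with all libraries, 0.26 without naive replicate 1 and 0.28 without naive replicate 2. Fewer members, and fewer of all genes, were called higher without either naive replicate, in fits that left 1 naive library. The 12 myeloid and dendritic markers summed to 146 to 159 CPM in control Treg and 50 to 50.6 CPM in naive cells. Csf1r, Ctsh, Fcer1g and Clec9a were at 0 in naive cells. Cst3, the highest of the 12, averaged 96.1 CPM in control Treg and 40.6 CPM in naive cells. The 6 NK markers summed to 40.9 to 50.9 CPM in control Treg, with Nkg7 alone at 36.8 CPM, and 9.27 to 14.8 CPM in naive cells, with Eomes alone at 10.6 CPM. The 7 B cell markers summed to 45.6 to 109 CPM in control Treg and 2.22 to 3.11 CPM in naive cells, with Ebf1 and Pax5 at 0 in naive cells, and the 5 erythroid and platelet markers to 293 to 712 CPM in control Treg and 1.11 to 2.28 CPM in naive cells. Their part was not tested.

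Psmb11, the beta subunit of the thymoproteasome of cortical thymic epithelium, had very low counts, and since it passed the filter only where it was high, its call is not used. It had 108 counts over the 4 control Treg libraries and 1 count over the 2 naive libraries. Tet2/3-deficient Treg had 93 counts in all. The Th0 and iTreg libraries of the first table had 0 counts in every library, which allows up to 0.136 to 0.148 CPM per group (3 counts over both libraries, for counting error only), while restimulated cells had 39 and day 6 iTreg 30 counts in the second table. Psmb11 lies beside Psmb5 on chromosome 14.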

How the data were processed

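RNA was prepared with RNeasy Plus and TruSeq stranded mRNA kits, per the labels' protocols. The submitters' processing notes name the mm9 build, edgeR 3.26.6 in R 3.6.1, Picard 2.5.0, TopHat2 2.1.1, Trim Galore 0.4.2 and SAMtools 1.7. The counting tool and its strand setting are not given in the sources used here. The deposited count tables hold whole reads for 21761 genes, and the deposited FPKM tables scale by gene length and library total. Ex vivo columns carry S numbers that match a group and no single sample.

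Comparisons were tested with edgeR 4.0.16 in R 4.3.3 (TMM factors, filterByExpr, robust quasi-likelihood F test, 2-sided, Benjamini-Hochberg adjustment over all genes tested, threshold 0.05). The 12 naive and cultured libraries shared 1 fit, with 6 residual degrees of freedom, and every other comparison used its own 2 groups. SE is the log2 fold change over the root of F. CPM are over TMM-scaled library sizes, and marker sums over raw totals, with 1 marker of the B cell list and 1 of the erythroid and platelet list not reported here. Alternatives were DESeq2 1.42.0, limma 3.58.1 on log2(FPKM + 1), other factors, no count filter, a required fold change, other library sets, a replicate block and libraries left out. Named in each comparison were the catalytic subunits, the activators and up to 4 called members each way with the largest changes; members, lists and tests were chosen with earlier results of these data known. In GENCODE M21, 11 members share exon sequence with a gene on the other strand and 2 with one on the same strand. The 3 with named pseudogenes are the constitutive catalytic subunits Psmb5, Psmb6 and Psmb7. The counts of all these members are uncertain. Replicate pairs differed beyond sampling noise (chi-square per degree of freedom 2.289 to 23.6).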

Additional observations from a re-analysis of the deposited data

Results flagged for a closer look

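Among 44 combinations of a gene or an FPKM ratio with a group of 4 libraries, checked for a library far from the rest, 1 stood out. Chance gives about 1 in 20. Psme1 in Tet2/3-deficient Treg had 441 CPM in library S7, over 395, 396 and 401 CPM in the other 3, a gap of 0.87 of the group's range.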

How the results depend on the processing

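The members named in each comparison gave 1606 values under an alternative, of which 1480 kept their side of the threshold, 101 lost it and 25 gained it. None changed sign where the member was called with or without the alternative. Changes of sign without a call were not counted. Requiring a log2 fold change of 0.5 left 25 higher and 0 lower members in Th0 against naive cells, where 23.1% of all genes were higher and 21.4% lower. In restimulated cells it left 0 higher and 1 lower, where 12% of all genes were higher and 13.4% lower. The 1 left higher in control Treg against naive cells was Psmb11, whose call is not used. Of all genes 16.3% were higher there. Tet2/3-deficient Treg and each comparison of TGFβ, RA or VitC had 0 higher and 0 lower. In those comparisons of groups 1.13% to 3.86% of all genes were higher and 0.337% to 2.84% lower. With 2 groups fitted alone, the lower count was 12 for TGFβ against Th0, 10 for VitC added to TGFβ, 1 for RA added to TGFβ and 1 for RA added to TGFβ plus VitC. Of all genes 15.2%, 9.22%, 7.49% and 8.8% were lower there. With no count filter the lower count was 5 for VitC added to TGFβ (6.59% of all genes) and 1 for RA added to TGFβ plus VitC (7.14%). Upper quartile factors (9.24%) or limma (8.63%) also gave 1 for RA added to TGFβ plus VitC. Limma gave 1 lower for RA added to TGFβ (8.39%). With all 20 libraries fitted, 1 member was lower in control Treg against naive cells, where 27.7% of all genes were. The cause of these moves was not tested.

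Replicate numbers were not taken as pairing, since first-table groups share only 2 numbers, with correlations of 0.221 to 0.415 among the 4 TGFβ cultures and 0.0109 to 0.0899 for pairs with naive or Th0. In the second table own-number correlations were 0.0792, 0.0961 and 0.196, not all over 0.1, though each library correlated best with its own number. The replicate block gave 33 higher and 4 lower for Th0 against naive cells, with Psmb9 passing (adjusted p = 0.00546). It gave 13 lower for TGFβ against Th0 (16.1% of all genes, with Psmb7, Psmb9, Psme1 and Psme2 passing), 13 for VitC added to TGFβ (12.3%), 6 for RA added to TGFβ (12.4%) and 1 for VitC added to TGFβ plus RA (5.73%), 1 higher for RA added to TGFβ plus VitC, and 4 higher and 33 lower in restimulated cells. No block was possible for the ex vivo Treg comparisons.

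Leaving out 1 library gave ranges of 11 to 20 higher and 0 to 1 lower in Tet2/3-deficient Treg, 32 higher and 0 to 3 lower in Th0, 0 higher and 1 to 3 lower for TGFβ against Th0, 0 to 0 for VitC added to TGFβ, 0 to 12 lower for RA added to TGFβ, 0 to 7 lower for VitC added to TGFβ plus RA, 0 to 1 lower for RA added to TGFβ plus VitC, 12 to 28 higher and 0 to 1 lower in control Treg against naive cells, and 3 to 5 higher and 31 to 33 lower in restimulated cells. Over the same fits 12% to 18.6% of all genes were higher in Tet2/3-deficient Treg. In restimulated cells 30.9% to 33.8% of all genes were higher and 31.5% to 33.8% lower. In control Treg against naive cells 26.8% to 29.9% of all genes were higher in the fits without a control library. A library left alone in its group was assumed to vary like the other groups. Shares of all genes are not given for such fits. For RA added to TGFβ the median log2 fold change was -0.29 over the members and -0.008 over all genes without RA replicate 2. Without RA replicate 1 these medians were -0.04 and 0. For VitC added to TGFβ plus RA they were -0.24 and 0.005 without RA replicate 1. They were 0.002 and -0.0004 without RA replicate 2. With limma on log2 FPKM, which changes test and scaling together, the calls over all genes moved to 4205 higher and 2202 lower in control Treg against naive cells, against 3357 and 3082 by edgeR, with the median log2 fold change at 0.12 against 0.01. For Tet2/3-deficient Treg they moved to 2419 higher and 1462 lower, against 1953 and 1847. Groups of 2 libraries limit what the culture comparisons can call.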
